A study of Homo sapiens with 6 samples.

Results

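The activin axis genes were the inhibin and activin subunit genes INHA, INHBA and INHBB, the binding protein genes FST and FSTL3, and the receptor genes ACVR1, ACVR1B, ACVR2A and ACVR2B. They were followed through every probe set that the platform annotation assigns to one of them alone. All 9 genes were measured, on 24 of the 49193 probe sets. One array was hybridised per sample with total RNA of UMUC3-c31, a bladder cancer line whose name points to human UMUC3 cells. All 6 cultures spent 24 h in charcoal-stripped serum to remove steroids. The 3 vehicle cultures then received ethanol for 24 h, and the 3 others received 10 nM R1881, a synthetic androgen, for the same time. The design text calls the 3 samples of each condition biological replicates. The labels do not say how c31 was made or whether it is 1 clone.

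Activins are secreted dimers of inhibin beta subunits and belong to the transforming growth factor beta family. A dimer binds a type II receptor kinase, which recruits and phosphorylates a type I receptor, which in turn phosphorylates the transcription factors SMAD2 and SMAD3. Follistatin and follistatin-like 3 hold activins outside the cell and block their receptor sites, and pairing of a beta subunit with the alpha subunit gives inhibin, which opposes activin.

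The beta subunit gene INHBA was the only one of the 9 that passed the test, and it was higher with R1881. The promoter sequences of the beta subunit and binding protein genes are shown here because the results below set INHBA against its close relative INHBB and against its extracellular binders FST and FSTL3. Each line holds the 250 bases before a RefSeq start site, 5′ to 3′ on the gene's strand, on build GRCh38.p14. Capitals mark matches to the motifs named after them.

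INHBA, chr7:41703091-41703340, minus strand: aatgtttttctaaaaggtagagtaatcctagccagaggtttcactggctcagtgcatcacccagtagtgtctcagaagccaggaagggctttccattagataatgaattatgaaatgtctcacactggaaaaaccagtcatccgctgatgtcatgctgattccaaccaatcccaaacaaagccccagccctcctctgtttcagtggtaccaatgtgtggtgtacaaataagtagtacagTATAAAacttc
INHBB, chr2:120345886-120346135, plus strand: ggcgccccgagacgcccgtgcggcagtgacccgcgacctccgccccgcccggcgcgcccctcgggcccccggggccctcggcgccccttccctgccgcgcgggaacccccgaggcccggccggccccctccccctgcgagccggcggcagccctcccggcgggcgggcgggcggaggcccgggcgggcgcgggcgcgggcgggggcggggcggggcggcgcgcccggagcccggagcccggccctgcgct
FST, chr5:53480379-53480628, plus strand: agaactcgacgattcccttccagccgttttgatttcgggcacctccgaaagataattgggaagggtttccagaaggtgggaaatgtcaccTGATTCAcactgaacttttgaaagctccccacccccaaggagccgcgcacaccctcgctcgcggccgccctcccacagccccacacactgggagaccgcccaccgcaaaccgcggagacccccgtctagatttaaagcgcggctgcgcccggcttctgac
FSTL3, chr19:676142-676391, plus strand: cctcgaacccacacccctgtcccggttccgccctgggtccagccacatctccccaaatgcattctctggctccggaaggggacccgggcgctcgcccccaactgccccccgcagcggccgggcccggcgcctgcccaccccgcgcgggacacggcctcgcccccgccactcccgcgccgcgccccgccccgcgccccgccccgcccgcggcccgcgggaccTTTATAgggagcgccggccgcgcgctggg

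Both strands were searched for 6 motifs. These were the steroid receptor half-site AGAACA, the full site made of AGAACA, any 3 bases and TGTTCT, the SMAD box CAGAC, the AP-1 site TGANTCA, the cyclic AMP element half-site TGACG and the TATA box TATAAA. Every full site also counts as a half-site. The shares of all 35116 RefSeq windows of this length that held each were 12.4%, 0.00285%, 38%, 6.57%, 21.2% and 10.7%, in that order. INHBA held 1 match, a TATA box from -11 to -6 relative to the start. FST held 1, TGATTCA from -160 to -154, which matches the AP-1 pattern searched only because its middle base was left free. FSTL3 held 1, a TATA box on the opposite strand from -29 to -24. INHBB held none. The windows differed most in base composition, with 42.8% G and C in INHBA, 60% in FST, 80% in FSTL3 and 89.6% in INHBB, against a median of 58% over all windows. The INHBA window held 1 CpG and the INHBB window 46. The INHBA start site used here lies 2316 bases inside the outer end of the annotated gene. All 9 genes had at least 1 window, 12 in all. The only steroid receptor half-site among them was in the second window of ACVR1B, the full site was in none, and SMAD boxes were in 3 windows, of INHA, ACVR1 and ACVR1B.

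INHBA encodes the beta A subunit, whose homodimer is activin A. On its brighter probe set the vehicle arrays read 5.42, 5.30 and 5.39 and the R1881 arrays 6.12, 6.18 and 5.83 on the log2 scale. The groups did not overlap, and R1881 replicate 3 was the lowest of the treated arrays. The means were 5.37 ± 0.06 (SD, n = 3) and 6.04 ± 0.19 (SD, n = 3), a log2 change of 0.67 ± 0.09 (SE). This is 1.59-fold, with a 95% confidence interval of 1.37 to 1.86. The adjusted p was 0.0138 in limma with Benjamini-Hochberg adjustment over 18129 genes at a threshold of 0.05. The exact permutation test (two-sided) of these 6 values gave p = 0.10, which is as low as a 3 by 3 design goes. By this rule 2.42% of all genes were called (1.6% higher and 0.816% lower), and INHBA stood 101st by size of change and 246th by p. Without any 1 array the change was 0.61 to 0.78, but the call held only without R1881 replicate 3 (adjusted p = 0.00605). It was lost without vehicle replicate 1, 2 or 3 (adjusted p of 0.0657, 0.0797 and 0.0709 in limma) and without R1881 replicate 1 or 2 (0.0843 and 0.0679). The call was also lost with all 6 arrays when the replicate number was a block in limma (adjusted p = 0.0586), though the labels do not pair the arrays.

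The other INHBA probe set read 3.73, 3.80 and 3.87 in vehicle and 3.64, 3.80 and 3.93 with R1881. Both groups lay below the background level of 4.99, the 90th percentile of 423 olfactory receptor and keratin-associated protein genes, which stand in for genes that are not expressed. Its change was -0.01 ± 0.08 (SE). The evidence for INHBA therefore rests on 1 probe set, and its vehicle mean lay 0.38 above the background level.

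INHBB encodes the beta B subunit, whose homodimer is activin B. Its single probe set read 4.87, 4.92 and 5.0 in vehicle and 4.79, 4.87 and 4.94 with R1881, so that the groups overlapped and both means lay below background. The change was -0.06 ± 0.06 (SE), and no fold is given. Within each array INHBA exceeded INHBB by 0.44 ± 0.10 (SD, n = 3) in vehicle and by 1.18 ± 0.25 (SD, n = 3) with R1881. Since INHBB lay below background in both groups, nothing is read from this pair beyond the change of INHBA itself.

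INHA, the alpha subunit that turns a beta subunit into inhibin, was near background and showed no difference beyond its spread. The vehicle arrays read 5.29, 5.33 and 5.47 and the R1881 arrays 5.17, 5.29 and 5.51, with the treated arrays on both sides of the vehicle arrays. The change was -0.04 ± 0.09 (SE), with a 95% confidence interval of -0.26 to 0.18 and an adjusted p of 0.878 in limma.

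**Figure D1:**
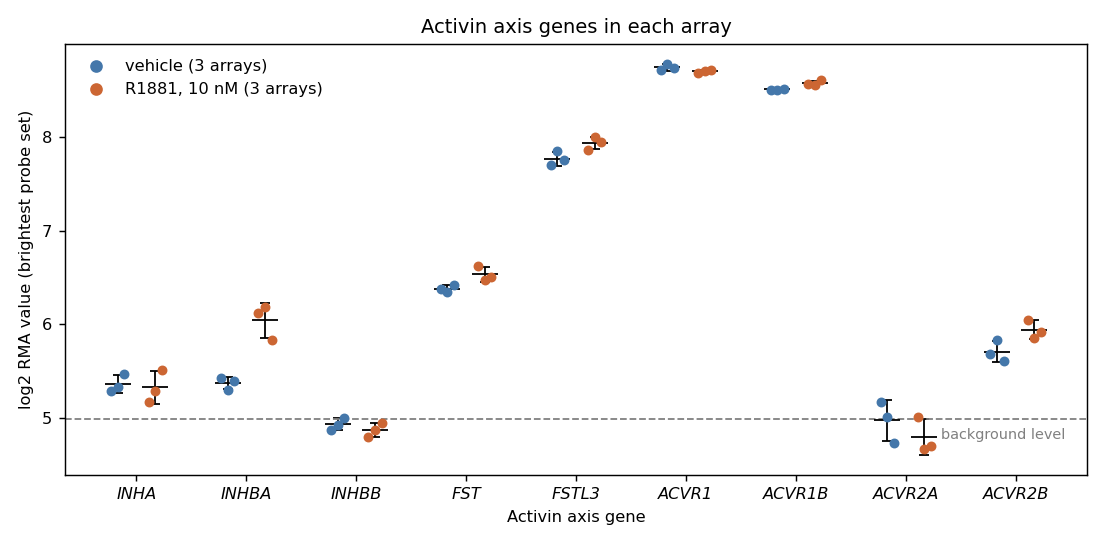
Log2 RMA values of the brightest probe set of each activin axis gene in the 3 vehicle and 3 R1881 arrays, with the mean (horizontal bar) and SD; the dashed line is the background level of 4.99. INHBA moved from a mean of 5.37 to 6.04, while INHBB and ACVR2A lay below the line in both group means, and levels of different genes cannot be set against each other because probe sets differ in affinity.

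The activin binders FST and FSTL3 were slightly higher with R1881 on their brightest probe sets, but neither passed the test. FST encodes follistatin. Its brightest set read 6.38, 6.34 and 6.42 in vehicle and 6.62, 6.47 and 6.51 with R1881, without overlap. The change was 0.15 ± 0.05 (SE), or 1.11-fold, with a 95% confidence interval of 1.02 to 1.22 and an adjusted p of 0.269 in limma. The other 2 FST sets were below background in both groups and went the other way by sign, with overlapping arrays and changes of -0.11 ± 0.12 and -0.09 ± 0.08 (SE). INHBA minus FST within an array was -1.01 ± 0.04 (SD, n = 3) in vehicle and -0.49 ± 0.20 (SD, n = 3) with R1881, a shift of 0.52 without overlap (exact two-sided permutation p = 0.10, and 0.15 adjusted over the 3 pairs of members compared).

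FSTL3 encodes follistatin-like 3, a secreted relative of follistatin that also binds activins. Its brightest set read 7.70, 7.85 and 7.76 in vehicle and 7.87, 8.0 and 7.95 with R1881. Every treated array was above every vehicle array, with a change of 0.17 ± 0.06 (SE), 1.13-fold with a 95% confidence interval of 1.02 to 1.24, and an adjusted p of 0.255 in limma. All 3 FSTL3 sets were higher with R1881 without overlap. The second set, an s set whose probes can match several transcripts, read 6.39, 6.43 and 6.45 against 6.48, 6.57 and 6.62, a change of 0.13 ± 0.05 (SE). The dimmest set had the largest change. It read 4.84, 4.76 and 4.90, all below background, against 5.36, 5.10 and 5.22, a change of 0.39 ± 0.08 (SE) with an adjusted p of 0.0693 in limma over all probe sets. The mean of its 3 sets, an alternative, was 0.23 ± 0.04 (SE) higher with an adjusted p of 0.0233 in limma. The shift of FST minus FSTL3 within an array was -0.017 (exact two-sided permutation p = 0.90). With the mean of each gene's sets that shift was -0.25 (exact two-sided permutation p = 0.10, unadjusted). Those means count FST sets that lay below background in both groups and the FSTL3 set that lay below it in vehicle. No difference between FST and FSTL3 is therefore read from this shift.

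ACVR2A and ACVR2B encode the type II receptors that bind activins. ACVR2B was measured on 2 probe sets, which went opposite ways. The brighter one read 5.68, 5.83 and 5.61 in vehicle and 6.05, 5.85 and 5.92 with R1881. The other read 5.34, 5.33 and 5.35 in vehicle and 5.18, 5.24 and 5.15 with R1881. Neither pair of groups overlapped, and the changes were 0.23 ± 0.08 and -0.15 ± 0.05 (SE) in the fit over all probe sets, with adjusted p of 0.287 and 0.257 in limma, so that neither passed. The within-array difference between the sets was 0.37 ± 0.12 (SD, n = 3) in vehicle and 0.75 ± 0.13 (SD, n = 3) with R1881, without overlap (exact two-sided permutation p = 0.10, 1 of 4 such differences within ACVR2B, INHBA and FST, all added after the values were seen). No direction is therefore given for ACVR2B as a gene, and the mean of both sets stood at 0.04 ± 0.05 (SE).

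ACVR2A was below background on its 3 probe sets in the means of both groups. Its brightest set read 5.17, 5.01 and 4.73 in vehicle and 5.01, 4.66 and 4.70 with R1881, with overlapping arrays and the widest spread of the 9 genes. The change was -0.18 ± 0.13 (SE), and the other sets stood at -0.0033 ± 0.06 and -0.05 ± 0.06.

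ACVR1B encodes ALK4, the type I receptor through which activins activate SMAD2 and SMAD3. The brightest of its 5 probe sets was nearly constant within a group, at 8.51, 8.51 and 8.52 in vehicle and 8.57, 8.56 and 8.61 with R1881. The groups did not overlap, yet the change was only 0.07 ± 0.04 (SE), with a 95% confidence interval of -0.03 to 0.16 and an adjusted p of 0.501 in limma. The other 4 sets had overlapping groups, with changes from -0.04 to 0.13.

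ACVR1 encodes ALK2, a type I receptor mainly of bone morphogenetic proteins that can also be held in complexes by activin A. Its brightest set, an s set, read 8.72, 8.79 and 8.74 in vehicle and 8.69, 8.71 and 8.72 with R1881, touching at 8.72. The change was -0.04 ± 0.04 (SE), with a 95% confidence interval of -0.14 to 0.06. Its other 3 sets stood between -0.08 and 0.08, so that a change of ACVR1 or ACVR1B on the scale of INHBA lay outside the intervals of their brightest sets.

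**Figure D2:**
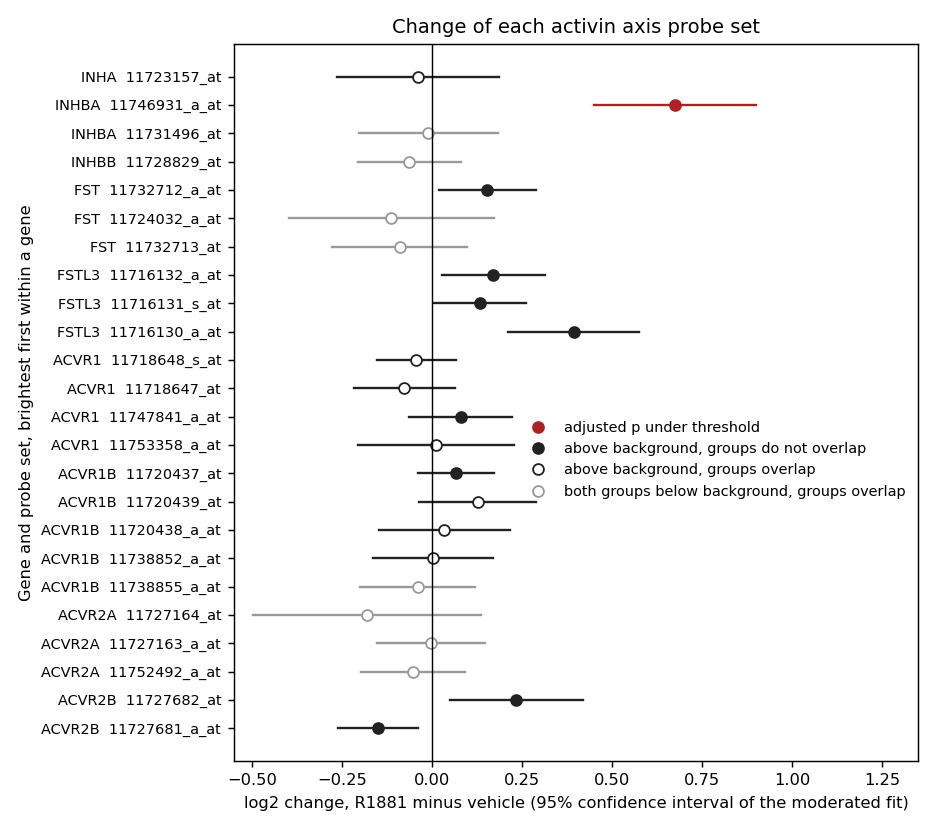
Log2 change (R1881 minus vehicle, n = 3 arrays each) of the 24 probe sets of the activin axis with the 95% confidence interval of the moderated fit over all probe sets. The brighter INHBA set stands at 0.67, the 3 FSTL3 sets lie to the right of 0 and the 2 ACVR2B sets lie on opposite sides of it.

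Over the 24 probe sets, 12 were higher and 12 lower by sign, with a median change of 0 and a range of -0.18 to 0.67. Only the brighter INHBA set passed the test over all probe sets (adjusted p = 0.0199 in limma), where 1.54% of all probe sets did (1.12% higher and 0.427% lower). Background was exceeded by 16 of the 24 in 1 group or both, and 7 had an unadjusted p under 0.05, against 12.5% of all probe sets. Groups did not overlap in 9 of them, 8 higher and 1 lower, against 16.8% of all probe sets. At the level of genes, each on its brightest probe set, 5 of the 9 did not overlap, against 18.5% of all genes. All 5 were higher with R1881 on that set, but they include ACVR2B and FST, whose other sets were lower by sign. An unadjusted p under 0.05 was found for 4 of the 9 genes, against 14.3%. The median change of the 9 genes was 0.07, beside 0 over all genes. Sets of 1 gene share their RNA and often their transcripts, so they are not independent of each other.

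The values of INHBA were most alike, over the 6 arrays with each gene centred on its vehicle mean, to those of SECTM1, SH3PXD2A, SLC39A14, DKK3 and RIC1. These were sought among 10859 of the genes above background. Axis genes and symbols of unnamed loci, small or long non-coding RNAs and antisense genes were left out. The Euclidean distances were 0.145, 0.226, 0.236, 0.236 and 0.242 on the log2 scale. SECTM1, a secreted and transmembrane protein, was the nearest, with a change of 0.68 ± 0.07 (SE). SH3PXD2A, a scaffold of invadopodia, stood at 0.65 ± 0.04, the zinc transporter gene SLC39A14 at 0.65 ± 0.06, DKK3, a secreted Dickkopf family member, at 0.60 ± 0.05 and RIC1, part of a Rab exchange factor, at 0.68 ± 0.04. These genes were chosen for their likeness to INHBA, so their changes are a description.

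**Figure D3:**
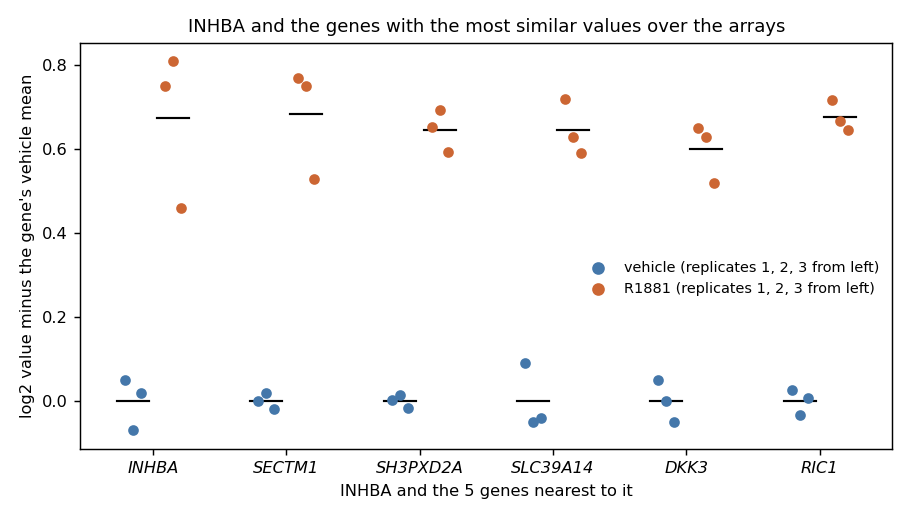
Log2 values minus the gene's own vehicle mean, for INHBA and the 5 genes nearest to it; each point is 1 array and each bar a group mean. INHBA and SECTM1 share a lower value in R1881 replicate 3 than in the other 2 treated arrays.

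The rest of the pathway was read from 6 lists of ligands, receptors, antagonists, proteases, SMAD proteins and SMAD-induced genes. Of 75 distinct genes 67 were measured, and 4 rose, 3 fell and 60 did not pass, where 1.6% of all genes rose and 0.816% fell. Their median change was 0.05, beside 0 over all genes. Background was exceeded by 46 of the 67.

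Among 9 other ligands measured, BMP6 fell and none rose. BMP6 is a bone morphogenetic protein that can signal through the ACVR2 receptors. Its mean was 6.94 ± 0.06 (SD, n = 3) in vehicle and 6.51 ± 0.07 (SD, n = 3) with R1881, a change of -0.43 ± 0.06 (SE) with an adjusted p of 0.0105 in limma. Leaving out vehicle replicate 2 or R1881 replicate 1 or 3 lost the call, with adjusted p up to 0.0625. The next smallest p were those of INHBE, the activin E subunit gene, at 0.13 ± 0.07, and NODAL and BMP7, at -0.15 ± 0.13 and -0.07 ± 0.06, and INHBE and NODAL lay below background. The list's median was 0.02, and only 3 of its 9 genes lay above background.

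Among 10 other receptors and co-receptors, TGFBR2, the type II receptor of transforming growth factor beta, rose and none fell. Its mean was 10.55 ± 0.05 (SD, n = 3) in vehicle and 10.89 ± 0.08 (SD, n = 3) with R1881, a change of 0.34 ± 0.06 (SE) with an adjusted p of 0.0270 in limma. That call held only without R1881 replicate 3 among the leave-outs (adjusted p up to 0.123 in the others). BMPR2, a type II receptor shared by bone morphogenetic proteins, stood at 0.25 ± 0.05 with an adjusted p of 0.0569 in limma. TGFBR1, the type I partner of TGFBR2, stood at 0.19 ± 0.05 and the co-receptor betaglycan (TGFBR3), which gives inhibin access to activin receptors, at 0.06 ± 0.05. The list's median was 0.06.

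None of 9 other antagonists and binders passed in limma, and 1, WFIKKN1, had an unadjusted p under 0.05. WFIKKN1 and WFIKKN2, binders of myostatin-like ligands, stood at 0.16 ± 0.07 and 0.19 ± 0.09 (SE), FSTL5 at 0.09 ± 0.08 and the nodal antagonist gene LEFTY1 at -0.05 ± 0.05, all but WFIKKN1 below background. None of 6 maturation proteases passed either, with 3 at an unadjusted p under 0.05, as had 14.3% of all genes, and a median of 0.15. PCSK7, a proprotein convertase, stood at 0.22 ± 0.05 (adjusted p = 0.119 in limma), BMP1 at 0.23 ± 0.08 and TLL1, below background, at 0.20 ± 0.06, both tolloid proteases. FURIN, the convertase best known for cutting such precursors, stood at -0.11 ± 0.08.

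Of 18 genes of SMAD transduction and control, TGIF1 fell and none rose. TGIF1, a corepressor that binds SMAD2 and SMAD3, had means of 8.56 ± 0.04 (SD, n = 3) in vehicle and 8.28 ± 0.02 (SD, n = 3) with R1881, a change of -0.28 ± 0.04 (SE) with an adjusted p of 0.0232 in limma. Each of the 6 leave-outs took the call away, with adjusted p from 0.0632 to 0.101. The ubiquitin ligase gene SMURF2 stood at -0.20 ± 0.05, the inhibitory SMAD6 at -0.23 ± 0.07 and FKBP1A, which binds type I receptors, at 0.20 ± 0.07. The signal carriers SMAD2, SMAD3 and SMAD4 stood at -0.02 ± 0.06, -0.10 ± 0.06 and -0.01 ± 0.04. The list's median was -0.02.

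Of 18 measured genes that SMAD signalling can induce, 3 rose, 1 fell and 14 did not pass, beside the 1.6% and 0.816% of all genes, with a median of 0.11. GADD45B, a stress-response gene, rose by 0.81 ± 0.05 (SE), CDKN1A, an inhibitor of cyclin-dependent kinases, by 0.42 ± 0.05 and BHLHE40, a transcriptional repressor of the clock, by 0.65 ± 0.10. Their adjusted p in limma were 5.69e-04, 0.00492 and 0.0226. ID1, which bone morphogenetic proteins induce, fell by 0.25 ± 0.04 with an adjusted p of 0.0383 in limma. It is counted in this list of induced genes although activin-type signals often lower it, so the list has no single expected direction. GADD45B and CDKN1A kept their calls in 6 of 6 leave-outs, BHLHE40 lost its own in 4 (all but those without vehicle replicate 1 or 3, adjusted p up to 0.122) and ID1 in all 6 (up to 0.137). The feedback genes SMAD7, SKIL and PMEPA1, common readouts of SMAD2 and SMAD3 activity that are counted in this list and the preceding one, did not pass. They stood at -0.10 ± 0.09, -0.04 ± 0.05 and 0.19 ± 0.07, and only PMEPA1 had groups without overlap. Over the 18 genes, 9 had an unadjusted p under 0.05, against 14.3% of all genes. Groups did not overlap in 11, against 18.5% of all genes, and ID1 was the only lower gene in either count. Those short of the threshold included TGFBI at 0.34 ± 0.07 (adjusted p = 0.0591 in limma), KLF10 at 0.20 ± 0.04 (0.0857) and CCN2 at 0.17 ± 0.05 (0.182). All of the genes that rose here also respond to other signals, and activin protein or SMAD phosphorylation was not measured.

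**Figure D4:**
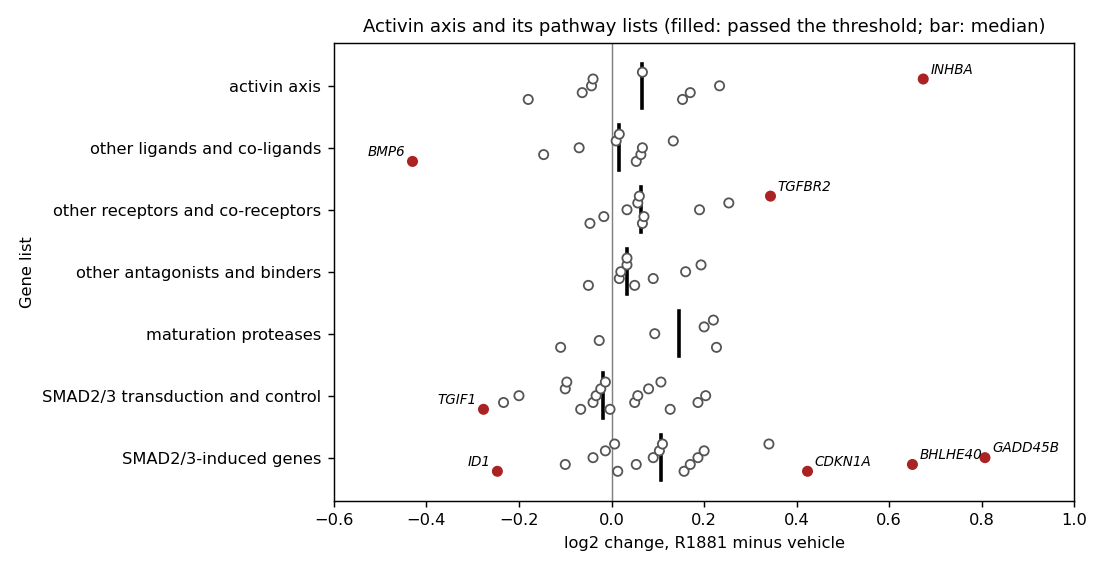
Log2 change (R1881 minus vehicle) of the 9 activin axis genes and of the members of the 6 pathway lists, each on its brightest probe set; filled points passed the threshold and vertical bars are list medians. INHBA, TGFBR2, BHLHE40, CDKN1A and GADD45B lie on the right, BMP6, TGIF1 and ID1 on the left, and most points lie near 0.

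The treatment check and the cell markers were read from the same fit. FKBP5, a common androgen target, rose by 1.49 ± 0.05 (SE), and CD44, which the series title names, fell by 0.28 ± 0.05, a call that each leave-out took away (adjusted p from 0.0530 to 0.163 in limma). Array medians were 5.49 to 5.51. Of 18 bladder epithelial markers 7 lay above background, led by the keratin genes KRT18 and KRT8 at vehicle means of 10.75 and 7.91. Of the defining uroplakin genes UPK1B, UPK2 and UPK3A lay below it, as did the adhesion genes CDH1 and EPCAM, while UPK1A and UPK3B lay slightly above, at vehicle means of 5.03 and 5.34. KRT7 rose by 0.40 ± 0.06 and KRT18 fell by 0.37 ± 0.05, where KRT7 held its call only without R1881 replicate 3 (adjusted p up to 0.104 in the other leave-outs). The list's summed unlogged signal was 2262 to 2371 in vehicle and 1873 to 1968 with R1881. KRT18, the brightest gene of the list, accounted for most of this fall, and the list's median change was 0.01. Of 13 fibroblast markers 4 lay above background and none passed in limma, and COL1A1, COL1A2, DCN and LUM lay below it. ACTA2 and PDGFRB were among those above background, with changes of -0.05 ± 0.06 and 0.14 ± 0.12 (SE). An unadjusted p under 0.05 was found for 2 of the 13, near the share of 14.3% over all genes. Both were above background and did not overlap, where 18.5% of all genes did not overlap. Neither count sets the list apart from all genes. These were COL6A3, a collagen VI chain gene, at 0.60 ± 0.15 (SE), and THY1, a surface glycoprotein gene, at 0.24 ± 0.07. COL6A3 was close to background in vehicle, with a mean of 5.03 and arrays of 5.13, 5.21 and 4.75. The summed unlogged signal of the fibroblast list was 619 to 624 in vehicle and 673 to 692 with R1881. THY1, the brightest of that list, and COL6A3 accounted for most of this rise, and the list's median change was -0.05. INHBA is expressed by fibroblasts as well as carcinoma cells, and the part of these markers in its change was not tested. Of 14 immune and endothelial markers 4 lay above background in 1 group or both, with sums of 650 to 747 and 631 to 707. Only TEK passed, from 3.72 ± 0.19 in vehicle to 5.0 ± 0.26 with R1881 (SD, n = 3). TEK was below background in vehicle and counted as above it only through its R1881 mean, which barely exceeded it. R1881 replicates 1 and 3 of TEK read 4.78 and 4.94, below background, and replicate 2 read 5.28. PTPRC, PECAM1 and CDH5 were below background in both groups. CD3E was below it in vehicle only, with means of 4.83 in vehicle and 5.02 with R1881. VWF lay slightly above background, at 5.07 and 5.13. CD68 was the brightest of the list and made up most of its sums. Its means were 8.93 in vehicle and 8.69 with R1881, a change of -0.24 ± 0.10 (SE) with an adjusted p of 0.328 in limma. In bulk RNA, a change in the number of cells of a type and a change of RNA per cell cannot be told apart.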

How the data were processed

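The deposited values are log2 signals per probe set and array. Per the submitters' processing notes the authors used RMA, which corrects background, quantile-normalizes arrays and summarises probes, so a shift of the whole transcriptome would be removed. No source used here gives its version or filters. The log2 values are rounded to 2 decimals, scanner files were not used, and 3 arrays per group limit the precision.

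Probe sets were named by the platform annotation, where 44898 of 49193 had 1 symbol, 1825 several and 2470 none. The 9 axis genes matched RefSeq symbols through their Entrez identifiers. A gene was represented by its probe set with the highest mean over all 6 arrays, giving 18129 genes. R1881 was compared with vehicle with limma 3.58.1 in R 4.3.3 (lmFit, eBayes), over genes and again over all probe sets, which gives the values of sets other than the brightest. P-values are two-sided, adjusted by Benjamini-Hochberg over everything tested, with a threshold of 0.05 and no filter. Unless a sentence names another test, adjusted p-values come from this fit, and SEs and intervals from its moderated variance. The scripts were tested on simulated data. The labels do not say that replicate numbers pair the arrays, and deviations of arrays with the same number correlated weakly, at 0.0327 to 0.0922, so no block was used.

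All 9 genes are named. Of each pathway list the 4 members with the smallest p are named, and of the genes most like INHBA the nearest 5. Further genes of the lists (SMAD2, SMAD3, SMAD4, SMAD7, SKIL, PMEPA1, TGFBI, KLF10, CCN2 and markers) were named after their values were seen. Members and lists were chosen with earlier results of these data known. Promoters are those of RefSeq on GRCh38.p14. Some planned list genes are not reported here. The alternatives covered array centring, a second quantile normalization, a dim-gene filter, a trended robust prior, array weights, the replicate number as a block, 2 other probe set rules and leave-one-out fits.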

Additional observations from a re-analysis of the deposited data

How the results depend on the processing

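INHBA was higher with R1881 under every alternative run, by 0.33 to 0.78 on the log2 scale. The lowest value, 0.33 with an adjusted p of 0.0125 in limma, came from the mean of its probe sets, which counts the set below background. The number of axis genes called was 1, and 2 with the mean of probe sets, where FSTL3 joined INHBA. Without 1 array it was 0 to 1, over genes and over probe sets, with fewer arrays in the fit. The number of axis probe sets called was 1, and 2 without dim probe sets, where an FSTL3 set that passed this filter only through its treated arrays joined. With the replicate block INHBA had an adjusted p of 0.0586 and 0 axis genes and 0 axis probe sets were called, and the calls over all genes went from 438 to 222 and those in the pathway lists from 7 to 4. The markers KRT7, KRT18 and TEK also lost their calls with the block (adjusted p of 0.0929, 0.0644 and 0.0541). Each vehicle array correlated best with the R1881 array of its own number, a hint from the data only. Calls over all genes were 757 without dim genes, 895 with a trended robust prior and 209 to 270 without 1 array, and those in the pathway lists 12, 13 and 2 to 4. The dim filter tests fewer genes. FST reversed to -0.017 with the mean of its sets, and INHA to 0.013 and 0.037 without vehicle replicate 3 and without R1881 replicate 1 (range without 1 array -0.13 to 0.037). Neither gene was called in any fit. The causes of these reversals were not tested. Of 124 values for single axis genes, 114 kept direction and side of the threshold. INHBB and ACVR2A lay below background, so changes there would be hard to see.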
